A study of Mus musculus with 5 samples.

Results

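Cholesterol handling was described through 31 genes of sterol synthesis, sensing, uptake, efflux and transport, chosen by symbol from a table of 24417 named genes. All 31 were found in the table and 30 entered the test, the exception being Ch25h. The cells came from the colon lamina propria of mice that carry 2 Foxp3 alleles, one marked with DTR-GFP and one, loxp-Thy1.1-STOP-loxp-GFP, in which Thy1.1 followed by a stop signal is made and Foxp3 protein is not. The Treg group held 2 libraries of Foxp3-DTR-GFP+ Treg cells, and 3 reporter-null libraries held Thy1.1+ cells from mice of that genotype, so reporter-null cells came from animals that also had Foxp3-sufficient Treg cells. The description of reporter-null replicate 1 carries a pair of numbers, 1 and 4. Separate animals are not stated for the libraries, so a p-value here covers the spread between libraries only, which may be technical. The comparison asks which transcripts differ between colonic cells that activated a Foxp3 allele without Foxp3 protein and Treg cells that have it.

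Animal cells build cholesterol from acetyl-CoA through mevalonate, farnesyl pyrophosphate, squalene and lanosterol. When membrane sterol is low, SCAP escorts the SREBP proteins to the Golgi, where they are cut and released to switch on the enzymes of synthesis, and INSIG proteins hold SCAP back when sterol is ample. Surplus sterol is turned to oxysterols that activate the LXR receptors, which raise the exporters ABCA1 and ABCG1 and the ubiquitin ligase MYLIP, and esterification by SOAT1 stores the rest. T cells raise sterol synthesis when they are activated and divide, and products of the same pathway supply prenyl groups to signalling proteins.

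Total counts ran from 17670420 to 22395169 per library. Foxp3 stood at 764 and 769.5 CPM (counts scaled to library size and composition) in the Treg libraries and at 75.7, 80.6 and 81.2 CPM in the reporter-null libraries, and Thy1 at 18.8 and 21.3 against 269.8, 269.0 and 300.3 CPM, so both followed the labels. Of 8 defining CD4 T cell markers none was at 0 in any library, and their summed level ran from 6576 to 7080 CPM. Within that sum 6 of 8 markers did not overlap between the groups, where 40.8% of all tested genes did not. Of the 8 markers 2 changed, where 8.79% of all tested genes did. Cd4 rose from 700.5 ± 26.5 to 1390.1 ± 146.9 CPM in reporter-null cells, and Cd2 fell from 1173.6 ± 137.4 to 455.1 ± 32.5 CPM. Treg replicate 1 and reporter-null replicate 2 stood apart by transcripts of other cells. Both carry the number 2 in their descriptions, which is not stated to mark a shared animal. The 11 epithelial markers summed to 328 CPM in Treg replicate 1 and 1370 CPM in reporter-null replicate 2, against 51.2, 39.3 and 40.8 CPM in Treg replicate 2 and reporter-null replicates 1 and 3, where 2, 3 and 2 of the markers were at 0. The B and plasma cell sum, most of it Jchain, was also higher there, at 1408 and 853 CPM against 382 to 434 CPM, and so was the stromal sum, at 42.4 and 100.3 CPM against 8.85 to 12.3 CPM. Among the markers of other cell types 2 were called, 1 of 6 tested B and plasma cell markers and 1 of 2 tested mast cell markers. None was called in the other lists, where 8.79% of all tested genes were. In reporter-null cells Cd79b was lower (20.3 and 19.2 against 7.42, 7.10 and 6.80 CPM) and Kit higher (6.51 and 7.67 against 26.7, 37.2 and 14.7 CPM). Cpa3, the other tested mast cell marker, was instead lower in every reporter-null library and was not called. The part of these transcripts in the results was not tested. Results below are therefore also given without those libraries where the call changes.

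Positive log2 fold changes mark genes higher in reporter-null cells, and SE is the standard error. Unless DESeq2 or limma is named, p-values were from the quasi-likelihood test of edgeR, adjusted by Benjamini-Hochberg over 14164 genes. Levels in a group are mean ± SD over n = 2 Treg or n = 3 reporter-null libraries. Of the 30 tested genes 3 changed, the squalene epoxidase gene Sqle upwards and the exporter gene Abca1 and the lysosomal sterol carrier gene Npc2 downwards. That is 10% of the tested members, near the 8.79% called among all genes. By direction, 1 of 30 was higher, where 4.07% of all genes were, and 2 of 30 were lower, where 4.72% were. The median log2 fold change was 0.08, beside 0.02 over all tested genes.

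More members than these 3 lay near the threshold. At an unadjusted p under 0.05 there were 11 of 30 members (36.7%), with 7 higher and 4 lower, where 22.6% of all genes passed. DESeq2 called the same 11 members at an adjusted p under 0.05, where it called 16.5% of all genes, and limma-voom with sample quality weights called 10 of those 11, where it called 15.2%. The 11 were Hmgcs1, Fdft1, Sqle, Lss, Hsd17b7, Srebf2 and Stard4 on the higher side, and Abca1, Abcg1, Npc2 and Soat1 on the lower side. The libraries of the groups did not overlap for 17 of 30 members, with 10 on the higher and 7 on the lower side. Among all genes 40.8% did not overlap, 20.3% on the higher and 20.5% on the lower side.

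**Figure D1:**
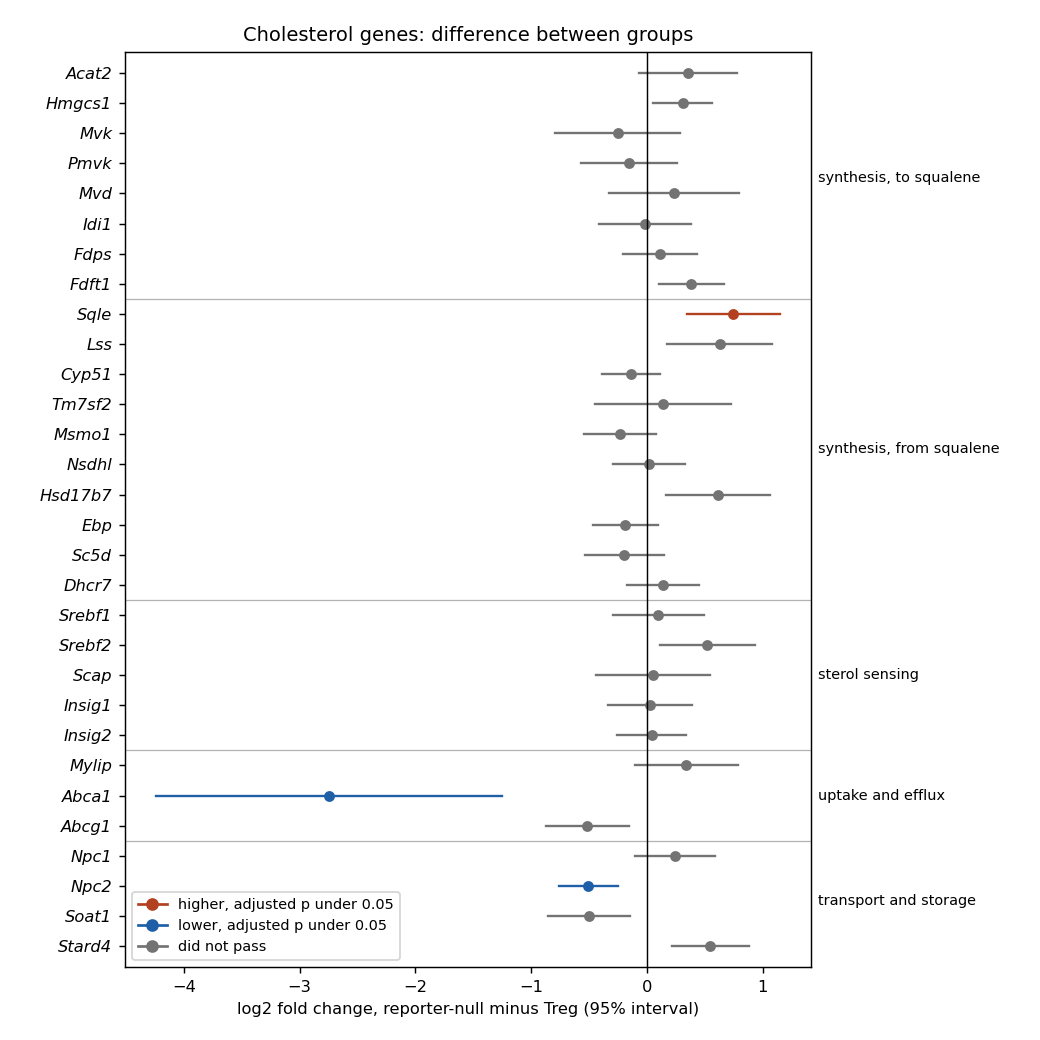
Log2 fold change of the 30 tested genes, reporter-null minus Treg (horizontal axis), with 95% intervals from the edgeR fit, ordered by role from the first enzymes of synthesis at the top. The point of Sqle at 0.75 is the only one past the threshold on the higher side, and those of Abca1 at -2.74 and Npc2 at -0.51 are past it on the lower side.

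Sequence before the start site is shown for Abca1 and Npc2, because they are called members. It is also shown for Hmgcs1, which alone among the 25 members with a window held the sterol regulatory element searched for. The sequences are from RefSeq on GRCm38.p6, with windows for 25 of the 31 members. The synthesis genes Sqle, Fdps and Fdft1 were not among them. Abca1 lies on the minus strand at chr4:53159896-53160145, Npc2 on the minus strand at chr12:84773113-84773362, each with the 250 bases before the start site, and the 60 bases of Hmgcs1 lie on the plus strand at chr13:119690189-119690248. Capitals mark the motifs, which are GC boxes (GGGCGG or its complement) in Abca1, GC boxes and CCAAT boxes (CCAAT or its complement) in Npc2, and the sterol regulatory element TCACNCCAC in Hmgcs1. No marked motif overlaps another.
Abca1: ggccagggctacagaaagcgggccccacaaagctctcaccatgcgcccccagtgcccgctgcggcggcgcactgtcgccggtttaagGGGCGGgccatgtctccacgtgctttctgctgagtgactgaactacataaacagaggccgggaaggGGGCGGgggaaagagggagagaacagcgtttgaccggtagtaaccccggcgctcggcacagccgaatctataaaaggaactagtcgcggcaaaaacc
Npc2: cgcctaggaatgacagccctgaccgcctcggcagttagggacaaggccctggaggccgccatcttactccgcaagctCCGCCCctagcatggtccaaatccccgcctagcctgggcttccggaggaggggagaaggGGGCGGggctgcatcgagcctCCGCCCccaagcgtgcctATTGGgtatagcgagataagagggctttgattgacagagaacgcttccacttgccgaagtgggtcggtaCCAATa
Hmgcs1: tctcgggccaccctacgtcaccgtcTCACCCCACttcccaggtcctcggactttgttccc

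The element TCACNCCAC, a site that SREBP proteins bind, was searched on both strands and found in 1 of 25 members. It lay in Hmgcs1 at positions -137 to -129 from the start site. Among the 10887 tested genes with a window 1.42% held it, and 1.24% of all 32851 windows did. CCAAT boxes, bound by NF-Y, a common partner of SREBP, were present in 21 of 25 members and in 14 of 15 synthesis genes, beside 42.6% of tested genes. Counted by window, since some genes have several, they were in 22 of 33 member windows and in 37.4% of all windows. GC boxes, bound by Sp1, were in 23 of 25 members beside 65.7% of tested genes, and in 27 of 33 member windows beside 35.7% of all windows. The LXR element, searched as AGGTCA repeated after 4 bases, was found in 0 of 25 members. It was in 0 of the 10887 tested genes with a window and in 0.0152% of all windows. Since exact letters were required, that search cannot tell whether Abca1 holds an LXR site of other letters. For the same reason the search for TCACNCCAC cannot tell whether other members hold an SREBP site of other letters. All of these are matches of letters in short windows and a description only.

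The first part of synthesis, from acetyl-CoA units to squalene, held 8 tested genes. Of these, 0 passed edgeR, 2 had an unadjusted p under 0.05 and 2 were called by DESeq2, beside 8.79%, 22.6% and 16.5% of all genes. Hmgcs1 makes HMG-CoA, the precursor of mevalonate. It was at 92.2 and 86.7 CPM in the Treg libraries and at 110.1, 115.8 and 106.2 CPM in the reporter-null libraries. All 3 reporter-null libraries lay above both Treg libraries, and the log2 fold change was 0.31 (SE 0.108, adjusted p = 0.148). Fdft1, squalene synthase, commits farnesyl pyrophosphate to sterols and was at 49.4 and 55.5 CPM in Treg and 72.7, 64.9 and 67.6 CPM in reporter-null libraries. Its groups did not overlap either, and the log2 fold change was 0.38 (SE 0.119, adjusted p = 0.109). Fdft1 shares exon sequence with Ctsb on the opposite strand in GENCODE M21, and since the strand setting of the counting is not given in the sources used here, reads of the pair cannot be told apart there. Exons of Hmgcs1, Idi1, Fdps, Lss, Cyp51, Tm7sf2, Srebf1, Scap, Npc1 and Ch25h also overlap another annotated gene.

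The other 6 genes of this part had log2 fold changes from -0.25 to 0.35. Acat2, which joins acetyl-CoA units, differed by 0.35 (SE 0.177), with reporter-null libraries at 33.1 to 46.1 CPM above Treg libraries at 28.5 and 32.2 CPM. The mevalonate kinases Mvk (-0.25, SE 0.228) and Pmvk (-0.16, SE 0.175) leaned lower, each with overlapping libraries. Mvd (0.23, SE 0.233), the decarboxylase after them, overlapped too. It ran from -0.034 to 0.57 with 1 library left out, so no direction is given for Mvd. Idi1, which isomerises the isoprene unit, differed by -0.02 with a 95% interval of -0.41 to 0.38. Fdps, which makes farnesyl pyrophosphate, differed by 0.11 with an interval of -0.21 to 0.43. Intervals of this width leave room for changes of about the size seen in Hmgcs1 and Fdft1.

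Squalene to cholesterol, the second part of synthesis, held 10 tested genes. Of these, 1 was higher and 0 lower by edgeR, beside 4.07% and 4.72% of all genes. At an unadjusted p under 0.05, 3 were higher and 0 lower, beside 1645 and 1554 of all 14164 genes (22.6% in either direction). DESeq2 called 3 higher and 0 lower, beside 1200 and 1123 of 14093 genes (16.5% in either direction). Sqle, which oxidises squalene and is a rate-controlling step of sterol synthesis, was at 51.8 and 67.7 CPM in the Treg libraries and at 115, 95.1 and 90.6 CPM in the reporter-null libraries. The lowest reporter-null library lay above the highest Treg library. Sqle rose from 59.8 ± 11.2 to 100.2 ± 13.0 CPM, a 1.68-fold difference (log2 fold change 0.75, SE 0.170, adjusted p = 0.0426). In bulk RNA a higher level per cell and a larger share of cells with the transcript cannot be told apart, here and in the results that follow. The call of Sqle was lost without Treg replicate 1 (adjusted p = 0.283), Treg replicate 2 (0.0882) or reporter-null replicate 1 (0.151), and adjusted p ran from 0.00122 to 0.283 over 16 alternatives, and was kept in the absence of Treg replicate 1 and reporter-null replicate 2 together (0.61, adjusted p = 0.0332), a fit with 1 Treg library.

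Lss, which closes squalene epoxide into lanosterol, was at 25.7 and 36.7 CPM in Treg and 48.6, 53.7 and 42.3 CPM in reporter-null libraries. The groups did not overlap, and the log2 fold change was 0.63 (SE 0.191, adjusted p = 0.102). Hsd17b7, a ketosteroid reductase that acts in removal of the lanosterol methyl groups, was at 17.8 and 21.8 CPM in Treg and 33.9, 31.9 and 25.3 CPM in reporter-null libraries. It too was higher in every reporter-null library, by 0.62 (SE 0.190, adjusted p = 0.107). Treg replicate 1 was the lowest library for Sqle, Lss and Hsd17b7.

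The 7 remaining late enzymes had log2 fold changes from -0.24 to 0.14, and their difference from Sqle was not tested. The demethylation enzymes Cyp51 (-0.14, SE 0.106) and Msmo1 (-0.24, SE 0.131) and the isomerase Ebp (-0.19, SE 0.119) were lower in all 3 reporter-null libraries than in both Treg libraries, with adjusted p of 0.520, 0.356 and 0.429. Msmo1, for example, was at 142.5 and 136.2 CPM in Treg and 127.3, 102.6 and 125 CPM in reporter-null libraries. Sc5d, a desaturase, differed by -0.20 with overlapping libraries. The reductases Tm7sf2 (0.14) and Dhcr7 (0.14) and the dehydrogenase Nsdhl (0.02) lay on or near 0, and the 95% interval of Dhcr7 was -0.18 to 0.45. Over all 18 synthesis enzymes 11 had a positive and 7 a negative log2 fold change, with a median of 0.12, and 51.7% of all genes were positive.

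As a description of each library, the CPM of the 18 enzymes summed to 913 and 997 in the Treg libraries and to 1094, 992 and 1008 in the reporter-null libraries. The groups overlapped, since Treg replicate 2 lay above reporter-null replicate 2. The sum of 16 proliferation genes was lowest and highest in the same libraries as the enzyme sum, at 666 CPM in Treg replicate 1 and 965 CPM in reporter-null replicate 1, with 906, 840 and 824 CPM in Treg replicate 2 and reporter-null replicates 2 and 3. Of those 16 genes 0 were called by edgeR, 1 had an unadjusted p under 0.05 and 1 was called by DESeq2. Among all genes the shares were 8.79%, 22.6% and 16.5%. The part of cell division in the enzyme levels was not tested.

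**Figure D2:**
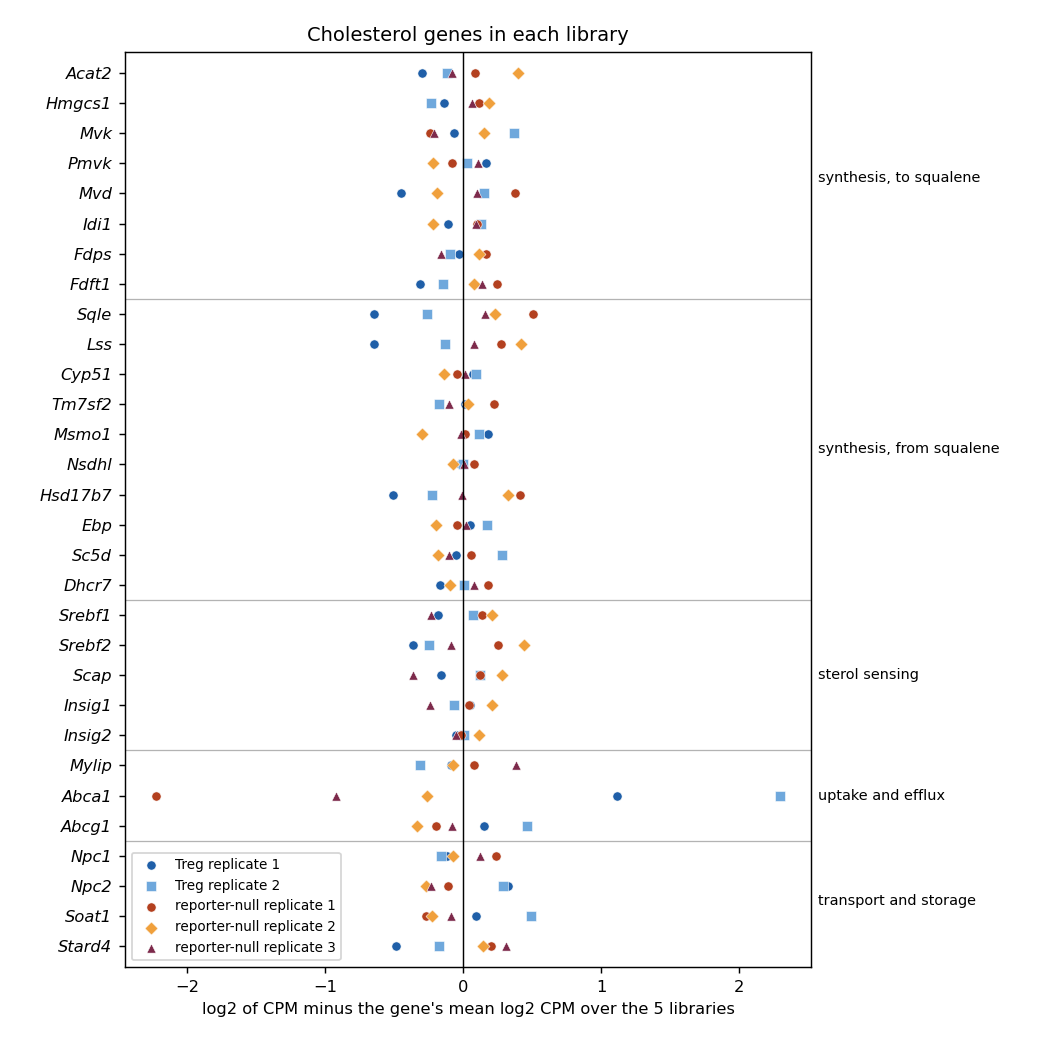
Level of each tested gene in each library, as log2 CPM minus the gene's mean over the 5 libraries (horizontal axis), by role. Blue symbols are the 2 Treg libraries and warm symbols the 3 reporter-null libraries. The colours separate for Sqle, Lss, Hsd17b7 and Stard4 with Treg to the left, and for Abca1, Abcg1, Npc2 and Soat1 with Treg to the right, and mix for genes such as Nsdhl and Insig2.

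Sterol sensing held 5 genes, all tested. Of these, 0 passed edgeR, 1 had an unadjusted p under 0.05 and 1 was called by DESeq2, beside 8.79%, 22.6% and 16.5% of all genes. Srebf2 encodes SREBP-2, the factor that drives the synthesis enzymes. It was at 388.7 and 422.0 CPM in the Treg libraries and at 596, 677 and 469.6 CPM in the reporter-null libraries. Every reporter-null library lay above both Treg libraries. The difference was 0.52 (SE 0.173, adjusted p = 0.128). The lowest of them, reporter-null replicate 3, lay near the Treg level. Without that library Srebf2 passed (0.65, adjusted p = 0.0343), and adjusted p ran from 0.0303 to 0.492 over 16 alternatives.

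Srebf1, whose SREBP-1 products act mainly on fatty acid genes, was at 123.5 and 147.5 CPM in Treg and 154, 161.9 and 119 CPM in reporter-null libraries. The groups overlapped, and the log2 fold change was 0.10 (SE 0.165, adjusted p = 0.795). SREBP-1a and SREBP-1c transcripts share the symbol and were counted as one. Scap, the escort, was at 80.0 and 97.3 CPM in Treg and 97.6, 108.8 and 69.6 CPM in reporter-null libraries, and differed by 0.05 (95% interval -0.44 to 0.54).

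Insig1, the retention protein that SREBP itself induces, was at 102.6 and 94.7 CPM in Treg and at 102.2, 114.6 and 84.0 CPM in reporter-null libraries. Its difference was 0.02 with a 95% interval of -0.34 to 0.39. Insig2, its relative that responds less to SREBP, was at 34.8 and 36.2 CPM in Treg and at 35.7, 39.0 and 34.8 CPM in reporter-null libraries, a difference of 0.04 with an interval of -0.26 to 0.34. The sign of the values for Srebf1, Scap, Insig1 and Insig2 turned under some alternatives, so no direction is given for them.

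Uptake and efflux held 3 genes. Abca1 moves cholesterol and phospholipid across the plasma membrane onto apolipoprotein A-I. It was at 5.48 and 12.4 CPM in the Treg libraries, with 101 and 269 counts, and at 0.541, 2.11 and 1.33 CPM in the reporter-null libraries, with 10, 44 and 30 counts. Both Treg libraries lay above all reporter-null libraries, and Treg replicate 2 stood at more than double the level of Treg replicate 1. Abca1 fell from 8.96 ± 4.92 to 1.33 ± 0.784 CPM, 6.70-fold lower (log2 fold change -2.74, SE 0.627, adjusted p = 0.0438), with a 95% interval of -4.24 to -1.25. It was the widest interval among the tested members.

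The call of Abca1 was lost without Treg replicate 1 (-3.22, adjusted p = 0.1085), Treg replicate 2 (-2.03, 0.269), replicate 1 (-2.37, 0.111) or replicate 3 (-2.74, 0.121) of the reporter-null group and with limma-voom (0.0550), and adjusted p ran from 7.65e-17 to 0.269 over 16 alternatives. The smallest of these, 7.65e-17, lay far below DESeq2 (0.000923), sample quality weights (0.0105) and the smallest with 1 library left out (0.00303). Abca1 has few counts, and that value is not relied on here. Macrophages express Abca1 strongly. The 10 macrophage and monocyte markers summed to 52.7 and 17.7 CPM in the Treg libraries and to 24.1, 106.1 and 24.5 CPM in the reporter-null libraries, so the groups overlapped. Of those 10 markers, 1, Fcgr1, was at 0, in Treg replicate 1. Of the 8 tested, 0 were called by edgeR or DESeq2 and 1, Cd68, had an unadjusted p under 0.05, beside 22.6% of all genes. The log2 fold change was positive for 7 of the 8 and negative for 1, Cd68, with a median of 0.71. Cd68 was at 8.79 and 3.84 CPM in Treg libraries against 1.35, 2.78 and 3.11 CPM in reporter-null libraries, lower in every one like Abca1 and Npc2 (-1.38, adjusted p = 0.179). The part of macrophage transcripts in the levels of Abca1 and Npc2 was not tested. Without Treg replicate 1 and reporter-null replicate 2 the log2 fold change of Abca1 was -3.69.

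Abcg1 exports cholesterol to HDL and was at 40.7 and 50.5 CPM in Treg and at 31.9, 29.1 and 34.7 CPM in reporter-null libraries. All reporter-null libraries lay below both Treg libraries, by -0.51 (SE 0.150, adjusted p = 0.0922). It passed without Treg replicate 1 and reporter-null replicate 2 (-0.59, adjusted p = 0.0353), in a fit with 1 Treg library, and adjusted p ran from 0.0329 to 0.406 over 16 alternatives. Mylip, the LXR-induced ligase that removes lipoprotein receptors, was at 24.7 and 21.1 CPM in Treg and 27.7, 24.98 and 34.3 CPM in reporter-null libraries. Its libraries did not overlap, with reporter-null cells higher by 0.34 (SE 0.187, adjusted p = 0.353), opposite in sign to Abca1 and Abcg1. That difference between LXR-controlled genes was not tested.

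**Figure D3:**
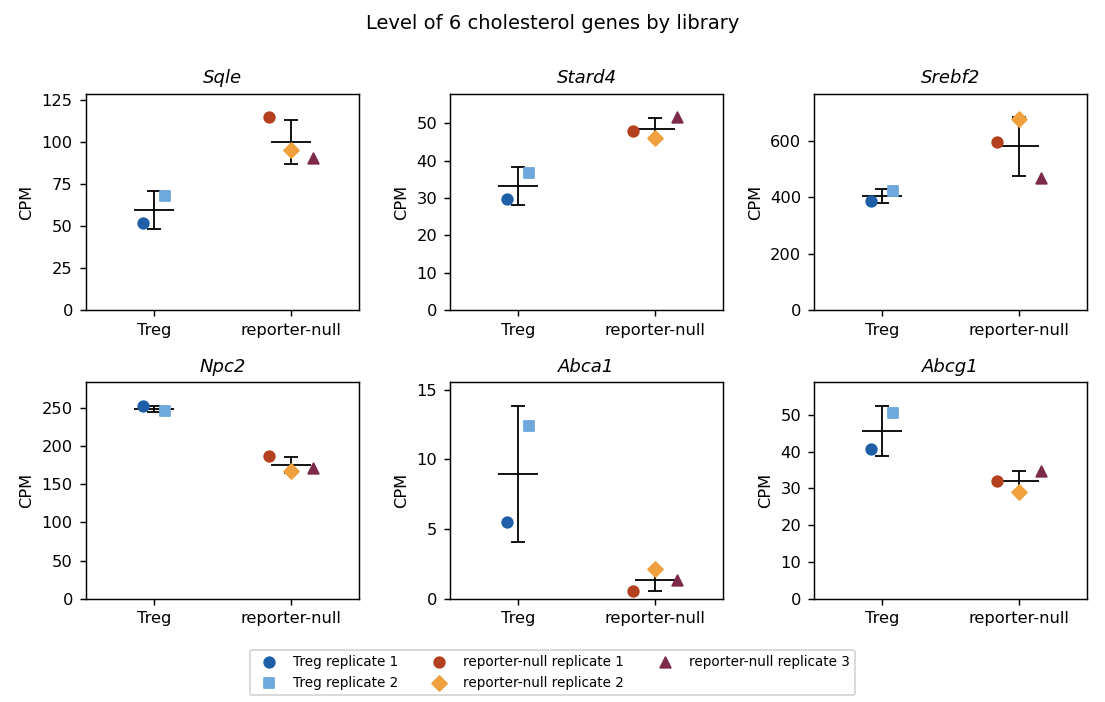
Level in CPM (vertical axes, from 0) of 6 cholesterol genes in each library, with the mean and SD of each group as a bar with caps. In all 6 panels the Treg and reporter-null points do not overlap. Relative to the group mean, the points of Abca1 spread the most in both groups. They lie at 5.48 and 12.4 CPM in Treg and at 0.541, 2.11 and 1.33 CPM in reporter-null libraries.

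Transport, storage and oxysterol synthesis held 5 genes, of which 4 were tested. Npc2, the soluble lysosomal protein that hands cholesterol from endocytosed lipoproteins to NPC1, was at 251.7 and 245.8 CPM in the Treg libraries and at 186.6, 166.7 and 171.6 CPM in the reporter-null libraries. The groups lay clearly apart and the libraries of each were close together. Npc2 fell from 248.8 ± 4.16 to 175.0 ± 10.4 CPM, 1.42-fold lower (log2 fold change -0.51, SE 0.107, adjusted p = 0.0335). With libraries left out, its call was lost without Treg replicate 1 (adjusted p = 0.225), Treg replicate 2 (0.1675), replicate 1 (0.115) or replicate 3 (0.0516) of the reporter-null group and without Treg replicate 1 and reporter-null replicate 2 (-0.45, 0.164), and adjusted p ran from 1.29e-05 to 0.225 over 16 alternatives. A replicate block by title number or by description number also removed the call of Npc2. Npc2 is also abundant in macrophages, whose markers are given above.

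Npc1, the membrane partner of Npc2, was at 30.4 and 29.5 CPM in Treg and at 38.9, 31.4 and 35.9 CPM in reporter-null libraries, with a difference of 0.24 (SE 0.146, adjusted p = 0.397). It therefore lay on the other side of 0 from Npc2, and whether the 2 differ was not tested. Soat1, which esterifies cholesterol for storage, was at 57.1 and 75.0 CPM in Treg and at 44.3, 45.7 and 50.4 CPM in reporter-null libraries. Its libraries did not overlap, and the difference was -0.50 (SE 0.149, adjusted p = 0.0989). Soat1 passed without Treg replicate 1 and reporter-null replicate 2 (-0.66, adjusted p = 0.0114), and adjusted p ran from 0.0114 to 0.422 over 16 alternatives.

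Stard4, a cytosolic sterol carrier that SREBP-2 induces, was at 29.7 and 36.8 CPM in Treg and at 47.9, 46.1 and 51.7 CPM in reporter-null libraries. All 3 reporter-null libraries lay above the Treg libraries, by 0.55 (SE 0.139, adjusted p = 0.0612), the smallest adjusted p among the members that did not pass. It passed without reporter-null replicate 2 (0.57, adjusted p = 0.0379), and adjusted p ran from 0.00847 to 0.317 over 16 alternatives. Ch25h, which makes 25-hydroxycholesterol, had 10 and 0 counts in the Treg libraries and 6, 4 and 10 counts in the reporter-null libraries. At this depth no difference in Ch25h was detectable.

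Neighbouring genes of the pathway were followed in 6 lists with 68 genes, of which 66 were tested. Among them 1 was higher and 3 were lower, 4 of 66 beside 8.79% of all genes, with a median of 0.07. The counts below stand beside 22.6% of all genes at an unadjusted p under 0.05 and 16.5% called by DESeq2, each in either direction. The SREBP-cleaving proteases Mbtps1 and Mbtps2 and other processing regulators held 8 tested genes with 0 called by edgeR or DESeq2 and 1 at an unadjusted p under 0.05. The isoprenoid branch, which makes prenyl groups and dolichol, held 14 with 0 called by edgeR, 3 at an unadjusted p under 0.05 and 1 called by DESeq2. LXR genes, partners and oxysterol enzymes held 11 tested with 0 called by edgeR, 2 at an unadjusted p under 0.05 and 2 called by DESeq2. Rxra, the partner receptor of LXR, was at 16.1 and 21.8 CPM in Treg libraries and at 41.6, 42.0 and 28.4 CPM in reporter-null libraries, without overlap, and did not pass by a small margin (0.98, SE 0.236, adjusted p = 0.0506). Abca7, a lipid transporter related to Abca1, was also higher in every reporter-null library (0.65, SE 0.200, adjusted p = 0.107). Arl4c, in the same list, was lower in every reporter-null library and did not pass (-0.34, SE 0.155, adjusted p = 0.254). Of the 11 tested, 7 had a positive and 4 a negative log2 fold change. Nr1h2, which encodes LXR-beta, averaged 205.7 ± 9.22 CPM in the Treg libraries against 225.2 ± 25.6 CPM in the others, a difference of 0.13 with a 95% interval of -0.18 to 0.44.

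The uptake list held 8 tested genes, with 1 lower and none higher by edgeR. At an unadjusted p under 0.05, 2 were higher and 1 lower, and DESeq2 called 1 higher and 1 lower. Scarb2, which on the lysosomal membrane carries glucocerebrosidase rather than lipoprotein, fell from 57.1 ± 6.14 to 34.6 ± 4.36 CPM (-0.72, SE 0.147, adjusted p = 0.0296). Its call was lost without Treg replicate 1 (0.227), Treg replicate 2 (0.106), replicate 1 (0.0729) or replicate 3 (0.0600) of the reporter-null group, and over 16 alternatives it ran from 0.00125 to 0.227.

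In sterol transfer and storage 15 genes were tested, with 1 higher and 1 lower by edgeR and by DESeq2. At an unadjusted p under 0.05, 2 were higher and 5 lower, beside 22.6% of all genes in either direction. Gramd1a, which brings plasma membrane cholesterol to the endoplasmic reticulum, was at 290.3 and 287.1 CPM in Treg and at 512, 500.4 and 429.6 CPM in reporter-null libraries. The groups did not overlap, and Gramd1a rose by 0.74 (SE 0.125, adjusted p = 0.0156). Its relatives Gramd1b (-0.33, adjusted p = 0.212) and Gramd1c (-0.84, adjusted p = 0.197) had negative values and did not pass. Osbpl9, an oxysterol-binding protein relative, fell from 197.1 ± 19.3 to 121.3 ± 1.26 CPM (-0.70, SE 0.110, adjusted p = 0.0116). Without Treg replicate 1, Treg replicate 2 or reporter-null replicate 1 the adjusted p was 0.145, 0.128 and 0.0835 for Gramd1a and 0.0591, 0.106 and 0.0769 for Osbpl9, and over 16 alternatives it ran from 7.51e-08 to 0.145 and from 1.45e-08 to 0.127.

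The fatty acid genes under SREBP control held 10 tested genes, with 1 lower and none higher by edgeR. At an unadjusted p under 0.05, 1 was higher and 1 lower, and DESeq2 called 1 higher and 1 lower. Elovl6, which elongates palmitate, was at 58.8 and 71.4 CPM in Treg and at 17.4, 15.6 and 16.7 CPM in reporter-null libraries. Its mean fell from 65.1 ± 8.94 CPM in Treg to 16.6 ± 0.879 CPM in reporter-null libraries, a difference of -1.97 (SE 0.141, adjusted p = 0.000715). The log2 fold change ran from -2.11 to -1.82 over 16 alternatives, with the call kept when any 1 library was left out (adjusted p at most 0.0152). Fasn, the fatty acid synthase, was higher in every reporter-null library, at 61.0, 61.8 and 49.8 CPM against 37.5 and 43.9 CPM, and did not pass (0.50, SE 0.148, adjusted p = 0.0961).

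**Figure D4:**
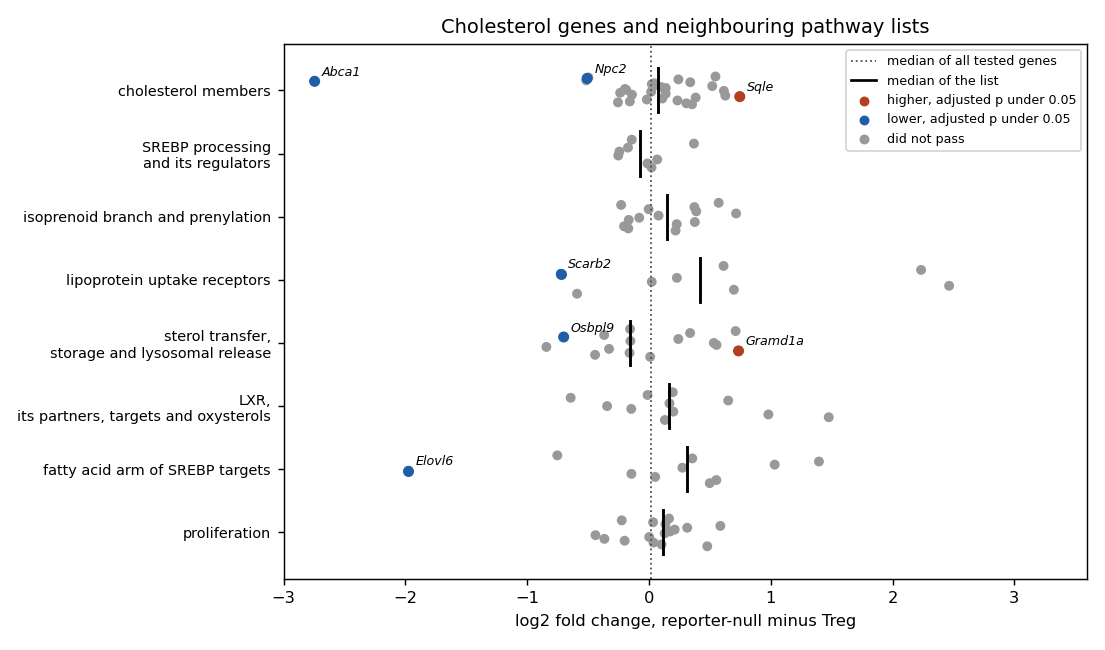
Log2 fold change, reporter-null minus Treg (horizontal axis), of the tested cholesterol genes and of 6 neighbouring lists and a proliferation list. Each point is a gene, coloured where it passed the threshold, the black line is the list's median and the dotted line the median of all genes at 0.02. Elovl6 at -1.97 lies furthest out among the called genes of the neighbouring lists.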

How the data were processed

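RNA-seq counts per gene symbol were analysed for 2 Treg and 3 reporter-null libraries, grouped by sample title. Per the labels' protocols, RNA extracted in TRIzol went through SMART-Seq v4 amplification and Illumina HiSeq paired-end sequencing. The deposited values are raw whole-number counts. DESeq appears without a version in the submitters' processing notes. The aligner, build, annotation and strand setting were not given in these sources. Of 24421 rows, 4 named NA were left out (0.0034% to 0.00492% of a library). No pair of replicates agreed within sampling noise (chi-square of 21.3 to 91.2 per degree of freedom).

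In R 4.3.3, filterByExpr (minimum count 10, minimum total 15) kept 14164 genes, scaled by TMM. Groups were compared with edgeR 4.0.16's robust quasi-likelihood F test and Benjamini-Hochberg adjustment (threshold 0.05). Each SE was the size of the log2 fold change over the root of its F. Common dispersion gave a coefficient of variation of 0.401. The steps were tested on simulated counts. Alternatives were RLE and upper quartile scaling, DESeq2 1.42.0, limma 3.58.1 voom without and with sample quality weights, other filters, thinning, each library left out and blocks on replicate numbers. Leaving out both libraries rich in epithelial transcripts was added after seeing the data.

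One gene of the neighbouring lists is not reported here. The members and lists were chosen with earlier results of these data known. The naming rule was values in every library for members past the threshold, the 6 next by p and the sensing and efflux genes, and, per neighbouring list, up to 4 called genes. Other genes are named to describe a list and were chosen after their values were seen.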

Additional observations from a re-analysis of the deposited data

How the results depend on the processing

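Sqle, Abca1 and Npc2 were the called members under RLE and upper quartile scaling, without a filter, with a CPM filter and after thinning. Members called higher numbered 7 with DESeq2, 6 with limma-voom and sample quality weights and 0 to 2 with 1 library left out. Members called lower numbered 4 with DESeq2, 1 with limma-voom, 4 with sample quality weights and 0 to 2 with 1 library left out. Without Treg replicate 1, Treg replicate 2 or reporter-null replicate 1 no member was called by edgeR, 6, 7 and 6 members had an unadjusted p under 0.05, and 2.27%, 2.70% and 3.32% of all genes were called. Leaving a library out removes residual degrees of freedom, and an arm left with 1 library is assumed to vary like the other group. The replicate numbers of the titles and of the descriptions differ, and neither is stated to mark a shared animal. With a replicate block by title number 0 members were called higher and 0 lower, 10 had an unadjusted p under 0.05, and 0.169% of all genes were called, with Elovl6 at an adjusted p of 0.0666. With a replicate block by description number 1 was called lower (Abca1) and Sqle was called higher. Npc2 lost its call under both blocks, at an adjusted p of 0.168 by title and 0.0771 by description. Deviations from the group means correlated across genes at -0.51 and -0.56 for the pairs by title and at 0.56 and 0.45 for the pairs by description, and with 2 Treg libraries these values are not independent. The median log2 fold change of the members was 0.17 with the replicate block by title number and ran from 0.010 to 0.17 with 1 library left out. Of 544 gene values under 16 alternatives, 474 kept direction and side of the threshold, 31 lost and 19 gained a call, and 20 changed sign. With 1 library left out Mvd ran from -0.034 to 0.57, Idi1 from -0.13 to 0.11, Nsdhl from -0.019 to 0.047, Srebf1 from -0.022 to 0.24, Scap from -0.094 to 0.22, Insig1 from -0.094 to 0.14 and Insig2 from -0.019 to 0.075. Idi1 was 0.040 with sample quality weights, and Nsdhl was -0.0014 with upper quartile factors and -0.0079 after thinning. With the replicate block by description number Nsdhl was -0.020, Scap -0.020 and Insig1 -0.0065. Without Treg replicate 1 and reporter-null replicate 2, Srebf1 was -0.10, Scap -0.21, Insig1 -0.019 and Insig2 -0.032, and 4 members were called. The cause of these changes was not tested. Depth limited Ch25h, with at most 10 counts in a library, and Abca1, with as few as 10.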
